A study of Dicentrarchus labrax with 23 samples.

Results

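The anterior and the posterior end of the European sea bass (Dicentrarchus labrax) intestine were compared, 8 arrays of anterior intestine (AI) against 8 arrays of posterior intestine (PI), out of 23 arrays in the series. Arrays were assigned by their labelled intestine section, and the 7 arrays of the middle intestine took no part in the test. The RNA on an array came from a single fish and was labelled with Cy3. AI was the piece just behind the pyloric caeca and PI the last piece, which takes in the rectum. All fish were of Mediterranean origin, ate a commercial diet and were fasted overnight before sampling, and no treatment, strain or genotype separated the groups. Neither age nor sex is used here, and whole pieces of intestine wall were extracted, so that every level is an average over epithelium, muscle, blood and immune cells.

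In fish as in mammals, the first part of the intestine receives pancreatic juice and bile, and its enterocytes carry out most of the membrane digestion and uptake of sugars, peptides and fat. Enterocytes farther back take up bile acids, and in teleosts the hind gut holds cells that swallow whole proteins by endocytosis and break them down in large lysosomes. Hox genes, which set position along the body axis, are used in order along the gut, the high-numbered groups nearest its end.

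Levels are log2 processed signals of a probe minus the 75th percentile of its array, so 0 stands for a signal at that percentile and 1 unit for a doubling. Differences are AI minus PI on the same scale, with their standard error (SE), and a level of 1 probe is never set against that of another. Of 14147 probes, 12691 reached the scanner software's mark of being well above background on 8 or more of the 16 arrays, and these were tested. Probes well above background made up 86.3 to 90.4% of an AI array and 86.6 to 93.1% of a PI array, and 2 to 47 spots per array were left out as uneven or as outliers. The 3 slides held 3 AI and 2 PI, 3 AI and 3 PI, and 2 AI and 3 PI arrays. AI replicate 2 lay toward PI for many probes, and PI replicates 7, 3 and 8 lay toward AI for fewer. Results that rest on an array are given with and without it. Beside differences, the number of arrays well above background is given where it was 5 or fewer in a group. Such differences rest in part on signals near background. The same holds for some genes that reached the mark on 6 or 7 arrays of a group, whose number is mostly not given. The epithelial markers and the smooth muscle markers used to check the tissue were well above background on all 16 arrays.

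AI and PI differed in 5366 of 12691 probes, 42.3% of those tested (limma, adjusted p under 0.05). Of these, 2626 (20.7%) were higher in AI and 2740 (21.6%) higher in PI. A difference of 2-fold or more was found for 2103 called probes (16.6%), 990 higher in AI and 1113 higher in PI. The largest differences were more often on the AI side: 138 probes against 74 differed by 4 log2 units or more, and 28 against 14 by 8 or more. In 1614 probes (12.7%) the 2 sets of 8 arrays did not overlap, 782 (6.16%) with AI and 832 (6.56%) with PI on the higher side. Within slides 1, 2 and 3 alone 507, 2992 and 1512 probes were called, and 5604 with slide as a block. With replicate number as a block 6671 were called, and with number and slide blocked together 5272, of which 4679 were among the 5366. In the latter fit numbers 3 and 6, whose arrays were on different slides, gave no information on the difference. For normexp background correction the median signal of a spot was used in place of the processed signal, and a constant was added. An added constant shrinks the differences of dim probes, but the part of each change was not tested. This setting gave 4795 calls, and its counts are given below for each list in which they differ.

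**Figure D1:**
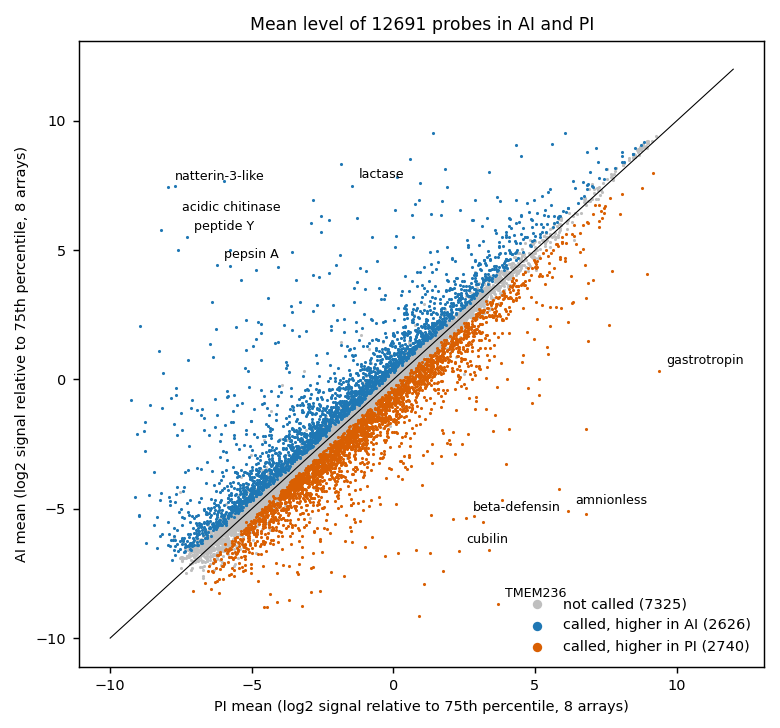
Mean log2 level of each tested probe in PI (x axis, 8 arrays) and AI (y axis, 8 arrays), with called probes coloured by direction and the line marking equal levels. The 2626 probes called higher in AI lie above the line and the 2740 called higher in PI below it, and points far from the line are more frequent above it.

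Gene names come from a table of the study that names 3652 of the probes, each after its best match in other species. That table holds probes the study called between the segments on these same arrays. Of 3477 named probes tested, 3331 (95.8%) were called here, 1488 higher in AI and 1843 higher in PI. Of the named probes tested 19.9% did not overlap with AI and 22.5% with PI on the higher side. The count of called members in the lists below is therefore close to what the names alone give. Size depends on the names as well: of called probes 2-fold or more apart, 1998 had a name and 105 did not. Direction and size come from the same arrays and are given as description only. Probes without a name numbered 10495, of which 2035 were called and 105 of these by 2-fold or more. Among unnamed probes whose groups did not overlap, L2_62483 (difference 2.24) and L1_5391 (1.85) were highest in AI, and L4_89609 (-3.27) and L1_66126 (-2.02) highest in PI.

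Genes named after stomach proteins were high at the anterior end. All 3 listed were higher in AI with no overlap between the groups, where 6.16% of all tested probes and 19.9% of those with a name did so. Their median difference was 10.64. Acidic mammalian chitinase (L1_86990), a chitin-cutting enzyme of the mammalian stomach and lung, ranged from 1.70 to 8.74 in AI (median 8.15) and from -9.10 to -6.72 in PI (median -7.75). Pepsin A (L12_87775), a protein-cutting enzyme of gastric juice, ranged from 3.40 to 5.36 (median 4.49) and from -8.79 to -1.16 (median -6.42). Gastrin (L1_32270), the peptide hormone that drives gastric acid secretion, ranged from -0.31 to 5.25 (median 4.92) and from -5.83 to -4.31 (median -4.68). Chitinase and gastrin were lowest in AI replicate 2, while pepsin A on PI replicate 8, at -1.16, stood well above the other PI arrays. The differences were 15.19 (SE 0.80), 10.64 (SE 0.79) and 9.09 (SE 0.63), with adjusted p = 2.6e-10, 1.7e-08 and 7.2e-09. Chitinase and pepsin A were well above background on 3 and 5 of 8 PI arrays. With AI replicate 2 left out chitinase differed by 16.01 and gastrin by 9.74, and with PI replicate 8 left out pepsin A differed by 11.36.

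Enzymes that sit on the brush border and finish digestion were mostly higher in AI, by amounts that ranged widely. Of 18 tested, 14 were higher in AI, 3 higher in PI and 1 was not called, with a median difference of 1.55. With replicate number as a block 15 were higher in AI, because carboxypeptidase O passed (adjusted p = 0.0688 without and 0.0193 with the block). Lactase-phlorizin hydrolase (L12_89397), which cuts milk sugar and plant glycosides, lay between 6.85 and 7.84 on the AI arrays (median 7.49). On the PI arrays it ran from -4.45 to 4.03 (median -3.35), where replicates 7 and 8, at 4.03 and 3.37, and replicate 2, at 0.01, stood above the other 5 arrays. Its difference of 8.97 (SE 1.13, adjusted p = 7.2e-06) was 9.75 without PI replicate 7. Meprin A subunit beta (L12_88973), a membrane metalloprotease, ranged from -0.73 to 6.81 in AI (median 6.12) and from -6.10 to -5.15 in PI (median -5.83). It was lowest on AI replicate 2 and next lowest, at 3.03, on replicate 6. It differed by 10.78 (SE 0.85, adjusted p = 3.2e-08), and by 11.60 without AI replicate 2. Alkaline phosphatase, tissue-nonspecific isozyme (L1_77244), an enzyme that removes phosphate groups, was not well above background on any PI array. It was at least 4637-fold higher in AI, and at least 8320-fold without AI replicate 2 (adjusted p = 2.6e-09).

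Neutral ceramidase (L12_88162) and ectonucleotide pyrophosphatase/phosphodiesterase family member 7 (L12_88885), the alkaline sphingomyelinase, both digest sphingolipids of the diet. They were 7.70 (SE 1.1) and 8.23 (SE 1.08) higher in AI, with adjusted p = 2.7e-05 and 1.1e-05. The AI arrays lay within 7.14 to 8.22 for the former and 5.11 to 6.44 for the latter, while the PI arrays spread from -5.51 to 3.60 and from -5.76 to 2.57. For both, PI replicate 8 was the highest PI array. Neutral ceramidase differed by 6.90 without PI replicate 5, and the sphingomyelinase by 8.96 without PI replicate 8. Enteropeptidase (L12_89187), the enzyme that activates trypsinogen, was 35.4-fold higher in AI (difference 5.15, SE 0.56, adjusted p = 1.4e-06). Maltase-glucoamylase and sucrase-isomaltase, which cut the products of starch digestion and sucrose, differed by 1.27 and 0.96, each with overlap between the groups. The 3 enzymes higher in PI were gamma-glutamyltranspeptidase 1 (difference -2.96), which splits glutathione, meprin A subunit beta-like (-1.66) and dipeptidase 1 (-1.34). Gamma-glutamyltranspeptidase 1 was at 6.28 on AI replicate 2, above all 8 PI arrays, and between 1.1 and 3.26 on the other AI arrays.

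**Figure D2:**
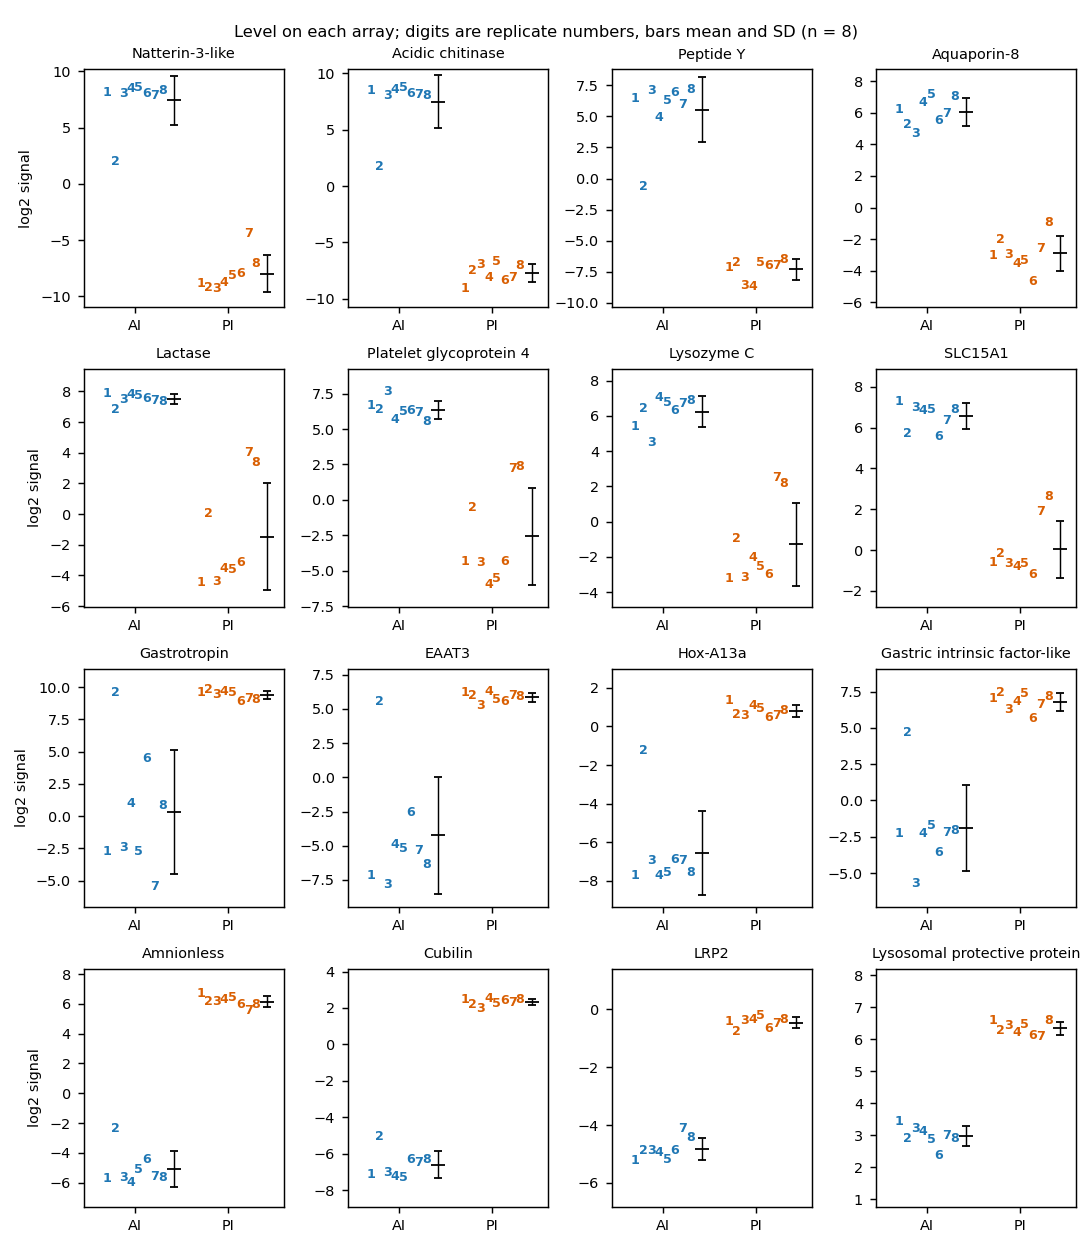
Log2 level (y axis, signal relative to the array's 75th percentile) of 16 genes on every AI and PI array, where each digit is an array's replicate number and the bar gives the mean and SD of 8 arrays. The digit 2 of AI stands among the PI arrays for gastrotropin and EAAT3 (excitatory amino acid transporter 3) but not for LRP2 (low-density lipoprotein receptor-related protein 2) or lysosomal protective protein, and the digits 7 and 8 of PI are the highest PI arrays for lactase, platelet glycoprotein 4, lysozyme C and SLC15A1.

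Genes of fat absorption and lipoprotein assembly were higher in AI almost throughout. Of 17 listed, 16 were tested and 15 were higher in AI, none in PI, with a median difference of 5.20. The 14 kDa apolipoprotein (L1_53088), a lipid-carrying protein described in fish, ranged from 2.26 to 9.02 in AI (median 8.35) and from -7.22 to -4.70 in PI (median -6.01). Apolipoprotein C-II (L12_59073), the cofactor of lipoprotein lipase, ranged from 6.33 to 9.42 (median 8.67) and from -3.16 to 1.54 (median -2.79). Both were lowest in AI on replicate 2 and did not overlap between the groups. Their differences were 13.67 (SE 0.77, adjusted p = 5.4e-10), or 14.45 without AI replicate 2, and 10.18 (SE 0.66, adjusted p = 3.1e-09). Apolipoprotein B-100 and apolipoprotein B, the scaffold of lipoprotein particles, were 6.26 (SE 0.59) and 4.71 (SE 0.51) higher in AI, and microsomal triglyceride transfer protein, which loads fat onto them, 2.42 (SE 0.23). Apolipoprotein Eb was not well above background on any PI array and was at least 67.8-fold higher in AI (adjusted p = 1.8e-07).

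Platelet glycoprotein 4 (L12_86214), also known as the fatty acid receptor CD36, lay between 5.54 and 7.61 on the AI arrays (median 6.28). In PI it lay between -5.94 and -0.51 on 6 arrays and at 2.20 and 2.34 on replicates 7 and 8. The difference was 8.90 (SE 1.11, adjusted p = 7.0e-06), and 9.60 without PI replicate 8. Apolipoprotein A-I (L1_22120), the main protein of high-density lipoprotein, showed this pattern more sharply, at -1.07 and -1.22 on PI replicates 7 and 8 and at -3.93 on replicate 2 against -9.32 to -7.62 on the other 5 PI arrays. The AI arrays lay between -2.14 and -0.48, so these 2 PI arrays overlapped with AI. It was well above background on 3 of 8 PI arrays and its difference of 4.84 (SE 1.17, adjusted p = 0.0029) was 5.58 without PI replicate 7. Intestinal fatty acid-binding protein (L12_39581), which carries fatty acids inside enterocytes, was 17.4-fold higher in AI (difference 4.12, SE 0.32, adjusted p = 2.6e-08) with no overlap. The enzymes that rebuild triglyceride in the enterocyte, diacylglycerol O-acyltransferase 2 and 2-acylglycerol O-acyltransferase 2-A, were 5.56 (SE 0.29) and 1.70 (SE 0.14) higher. Liver-type fatty acid-binding protein missed the threshold (difference 2.87, SE 1.31, adjusted p = 0.0933), with usable spots on 5 of 8 AI arrays. With replicate number as a block it passed (adjusted p = 9.5e-06), and the difference was 2.08 without AI replicate 7. Phosphoethanolamine N-methyltransferase 3 (L1_82669), named after an enzyme of phosphocholine synthesis known from plants, was 9.77 higher in AI (SE 0.64, adjusted p = 3.5e-09) and ranged from 3.44 to 9.09 there and from -3.55 to -1.85 in PI.

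Cholesterol synthesis enzymes were higher in AI by smaller amounts. All 8 listed were called, from 0.99 for mevalonate kinase to 2.37 for 7-dehydrocholesterol reductase, which makes the last step of one branch, with a median of 1.5. Methylsterol monooxygenase 1 ranged from 3.86 to 5.35 in AI (median 5.09) and from 2.36 to 3.77 in PI (median 3.54) and did not overlap, as was also the case for 3-keto-steroid reductase. The other 6 overlapped. Of all tested probes 6.16%, and of those with a name 19.9%, did not overlap with AI higher. AI replicate 2 was the lowest AI array for all 8, and the median member lay 0.809 of the way from the mean of the other AI arrays to the PI mean on that array.

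Peptides of gut endocrine cells and nerves were called higher in AI for 6 of 6 genes, with a median of 6.15 (4.07 with normexp). Gastrin, described above with the genes named after stomach proteins, is also a member of this list. Peptide Y (L4_39425), of the neuropeptide Y family, ranged from -0.66 to 7.18 in AI (median 6.37) and from -8.72 to -6.48 in PI (median -6.99). It was at -0.66 on AI replicate 2 and at 4.90 or more on the other AI arrays, and it was well above background on 3 PI arrays. Neuromedin-B-like (L1_44416), named after a peptide that contracts gut muscle, lay between -0.93 and 4.37 (median 3.5) against -8.96 to -3.88 (median -6.56). Their differences were 12.82 (SE 0.88, adjusted p = 7.1e-09), or 13.71 without AI replicate 2, and 9.39 (SE 0.79, adjusted p = 7.7e-08). Pro-neuropeptide Y differed by 3.21 (SE 0.68), glucagon-1 by 1.65 (SE 0.23) and glucagon family neuropeptides by 1.62 (SE 0.25). Neuromedin-B-like was well above background on 4 PI arrays, and pro-neuropeptide Y on 7 AI and 3 PI arrays. Of 11 G protein-coupled receptors that the study singled out, which are not all those with a name, 5 were higher in AI and 4 in PI. Within these 11, G-protein coupled receptor 39, a zinc-sensing receptor, differed most, by 3.19 (SE 0.30). The other 4 higher in AI differed by 1.02 to 1.22 and the 4 higher in PI by -0.85 to -1.06. With normexp 2 were called higher in PI, and the calls of G-protein coupled receptor 84 (-0.86 without and -0.04 with it) and hydroxycarboxylic acid receptor 2-like (-0.85 and -0.32) ended. A probable receptor of this family (L12_89893, 1.02, adjusted p = 0.047) was called only narrowly: leaving out any 1 of 11 arrays ended its call, with differences of 0.78 to 1.04. Receptor 63 (-0.84) passed with the replicate block (adjusted p = 0.0784 without and 0.00851 with it), as did receptor 97 (0.0949 and 0.0421).

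Antimicrobial proteins were divided. Natterin-3-like (L12_88270), named after a fish venom toxin of a pore-forming family, ranged from 2.0 to 8.59 in AI (median 8.11) and from -9.32 to -4.42 in PI (median -8.45). AI replicate 2, at 2.0, was far below the other AI arrays, and PI replicate 7, at -4.42, far above the other PI arrays. On PI arrays it was well above background in 2 cases. The difference was 15.39 (SE 0.88, adjusted p = 6.9e-10), and 16.17 without AI replicate 2. Intelectin-2 (L1_88128), which binds sugars on microbes, was not well above background in PI and was at least 601-fold higher in AI (adjusted p = 2.3e-07), or at least 911-fold without AI replicate 2. Lysozyme C (L12_66506), which cuts bacterial cell walls, lay between 4.48 and 7.04 in AI and between -3.23 and 2.48 in PI, where replicates 7 and 8 were highest (difference 7.53, SE 0.81). Liver-expressed antimicrobial peptide 2-like differed by 6.01 (SE 0.60). Beta-defensin (L2_17762), a short peptide that disrupts bacterial membranes, ran the other way. It ranged from -6.57 to -3.47 in AI (median -5.78) and from 1.03 to 4.04 in PI (median 2.64), 244-fold higher in PI (difference -7.93, SE 0.49, adjusted p = 1.6e-09). Lysozyme g was also higher in PI (-1.92, SE 0.33).

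Other genes far higher in AI had no list. Uncharacterized protein LOC100002243 (L1_41991) differed by 13.99 (SE 0.80), or 14.75 without AI replicate 2, and was well above background on 1 PI array. The epithelial surface protein carcinoembryonic antigen-related cell adhesion molecule 5 (L1_86196) differed by 9.41 (SE 0.88), or 10.03 without AI replicate 2, and was likewise well above background on 1 PI array. Hypothetical protein LOC100699670 (L12_82732) lay between 3.16 and 4.22 in AI and differed by 9.26 (SE 1.01), or 9.95 without PI replicate 7, on which it was at -0.52 against a PI median of -6.94. It was well above background on 4 PI arrays.

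Transporters were divided between the ends by substrate and by member. For peptides and amino acids, 6 of 16 were higher in AI and 10 higher in PI (9 with normexp). Of the 3 listed proton-coupled carriers of solute carrier family 15, 1 was higher in AI and 2 in PI. Solute carrier family 15 member 1 (L12_88402), the low-affinity carrier of the brush border, ranged from 5.55 to 7.25 in AI (median 6.86) and from -1.17 to 2.62 in PI (median -0.62). The difference was 6.50 (SE 0.50, adjusted p = 2.3e-08), and PI replicates 7 and 8, at 1.88 and 2.62, were the 2 highest PI arrays. Member 2 (L2_89755), the high-affinity carrier, ranged from -7.68 to -4.30 on 7 AI arrays and from 2.32 to 3.2 in PI. On AI replicate 2 it was at 3.22, above every PI array, and it was well above background on 4 AI arrays. Its difference was -8.14 (SE 1.16, adjusted p = 2.6e-05), and -9.35 without AI replicate 2. Solute carrier family 15 member 4, a carrier of lysosomal membranes, differed by -1.38 (SE 0.20).

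The carriers of acidic and basic amino acids showed the same split of AI arrays. Excitatory amino acid transporter 3 (L2_89236), which imports glutamate and aspartate, lay between -7.87 and -2.60 on 7 AI arrays, at 5.52 on AI replicate 2 and between 5.27 and 6.30 in PI. B(0,+)-type amino acid transporter 1 (L2_89061), which exchanges basic amino acids and cystine, lay between -9.06 and -5.15, at 3.06 and between 2.23 and 3.92. The differences of -10.10 (SE 1.37, adjusted p = 1.6e-05) and -9.95 (SE 1.33, adjusted p = 1.4e-05) were -11.50 and -11.32 without that array. These carriers were well above background on 6 and 2 AI arrays, in that order. Lysosomal and other sodium-coupled neutral amino acid carriers were also higher in PI, with putative sodium-coupled neutral amino acid transporter 7 at -2.74 (SE 0.18), 6 at -1.98 (SE 0.16) and 9 at -1.49 (SE 0.12), each without overlap. The main neutral amino acid carrier of the mammalian small intestine, B(0)AT1, was higher in AI by 3.38 (SE 0.73, adjusted p = 0.0012), with overlap. Large neutral amino acids transporter small subunit 4 (1.94), monocarboxylate transporter 10 (1.61) and low affinity cationic amino acid transporter 2 (1.43) were higher in AI without overlap. A further carrier of the b(0,+) type (L2_27972, 0.97) was called as well, but not with number and slide blocked together (adjusted p = 0.11).

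For sugars, 5 of 8 carriers were higher in AI and 3 in PI (2 with normexp), with a median of 1.31. Member 5 of solute carrier family 2 (L12_84958), the fructose carrier of the brush border in mammals, ranged from 4.44 to 6.36 in AI (median 5.65) and from -2.68 to 2.49 in PI (median 0.39). The groups did not overlap and the difference was 5.48 (SE 0.56, adjusted p = 7.0e-07). Member 5-like differed by 3.75 (SE 0.26), also without overlap. Sodium/glucose cotransporter 1, which drives glucose uptake from the lumen, and member 2, which releases glucose to the blood, differed by 1.15 (SE 0.19) and 1.54 (SE 0.45), both with overlap. Members 8 (-0.99), 4 (-0.84) and 1 (-0.75) were higher in PI. The direction of member 1 turned with normexp background correction, where it differed by 0.02, and its call ended with number and slide blocked together (adjusted p = 0.091). Among vitamin carriers folate transporter 1 (L12_90042) was 20.9-fold higher in AI (difference 4.39, SE 0.26, adjusted p = 9.3e-10). The vitamin C carrier solute carrier family 23 member 1 (0.89) and the riboflavin carrier (0.69) were also higher in AI, and both sodium-dependent multivitamin transporters were higher in PI (-1.20 and -1.29).

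Genes of water, acid-base and ion transport were divided evenly, 8 of 18 higher in AI, 8 higher in PI and 2 not called. Those higher in AI differed by more. Aquaporin-8 (L12_85158), a water and ammonia channel, ranged from 4.72 to 7.16 in AI (median 6.06) and from -4.69 to -0.97 in PI (median -3.0), without overlap. Its difference was 8.96 (SE 0.45, adjusted p = 1.5e-10). Ammonium transporter Rh type B (L1_84283), an ammonia channel, lay between 4.11 and 6.15 on 7 AI arrays, at -2.20 on AI replicate 2 and between -6.61 and -5.05 in PI. The difference was 10.17 (SE 0.90, adjusted p = 1.3e-07), and 11.11 without AI replicate 2. Carbonic anhydrase 4 (8.4, SE 0.61), which was well above background on 1 PI array, carbonic anhydrase 1 (5.48, SE 0.42), solute carrier family 26 member 6 (7.59, SE 0.69), a chloride and bicarbonate exchanger, and electrogenic sodium bicarbonate cotransporter 1 (6.51, SE 0.51) did not overlap between the groups. Bicarbonate secretion by these proteins is known from the intestine of marine fish, which drink sea water.

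On the PI side chloride anion exchanger (L12_90171), which takes up chloride in the mammalian colon, lay between -4.25 and -2.0 on 7 AI arrays, at 2.98 on AI replicate 2 and between 2.32 and 3.22 in PI. It differed by -4.74 (SE 0.72, adjusted p = 4.8e-05), and by -5.46 without AI replicate 2. Aquaporin FA-CHIP, a water channel, differed by -2.26 (SE 0.51), and the sodium/hydrogen exchangers 7 and 9 by -1.97 (SE 0.30) and -1.14 (SE 0.17). With normexp background correction 5 rather than 8 members were called higher in PI and 9 rather than 8 higher in AI. The calls of sodium/hydrogen exchanger 7 (-0.35 with it), electroneutral sodium bicarbonate exchanger 1 (-1.07 without and -0.22 with it) and sodium bicarbonate cotransporter 3 (-0.74 and -0.03) ended. Sodium phosphate cotransporter (1.13) passed with the replicate block (adjusted p = 0.0830 without and 0.00933 with it).

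Zinc carriers had 4 of 9 tested members higher in AI and 5 higher in PI. Zinc transporter ZIP8 (L12_85588), an importer, ranged from -0.12 to 3.53 in AI (median 2.23) and from -5.19 to -2.05 in PI (median -3.84). It differed by 5.98 (SE 0.53, adjusted p = 1.2e-07). Zinc transporter 8 (L12_83994), which fills vesicles with zinc, ran the other way, from -4.03 to -0.61 in AI (median -1.73) and from 1.19 to 4.84 in PI (median 3.68). It differed by -5.52 (SE 0.49, adjusted p = 1.5e-07), and neither gene overlapped between the groups. The importers ZIP4 and ZIP4-like were higher in AI by 2.78 (SE 0.49) and 2.65 (SE 0.49), and zinc transporters 4 and 2 higher in PI (-1.59 and -1.66). With normexp zinc transporter 2 differed by -0.15 and its call ended, so that 4 were higher in PI.

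The GATA factors, transcription factors that in mammals keep the proximal type of small intestine, were higher in AI. Of 7 GATA and CDX factors 6 were higher in AI, none overlapping, and 1 in PI. Of all tested probes 6.16%, and of those with a name 19.9%, did not overlap with AI higher. GATA-binding factor 5-A (L12_85179) ranged from 4.59 to 5.6 in AI (median 5.09) and from -1.80 to 3.40 in PI (median -0.42), where replicates 7 and 8, at 3.40 and 2.08, were highest. It differed by 5.06 (SE 0.59, adjusted p = 3.1e-06). Transcription factors GATA-4 and GATA-4-like were not well above background on any PI array. They were at least 21.6-fold and at least 36.8-fold higher in AI (adjusted p = 7.7e-08 and 8.6e-08), or at least 30.1-fold and at least 56.3-fold without AI replicate 2. GATA-binding factor 6-A differed by 2.10 (SE 0.15). The 2 caudal-type factors were opposed, with CDX-1 higher in AI by 1.22 (SE 0.15) and CHOX-CAD, named after a chicken gene, higher in PI (-1.09, SE 0.26).

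Listed genes of vitamin B12 and protein uptake (receptors, vitamin B12 carriers and adaptors) were higher at the posterior end. All 7 tested of 8 listed were higher in PI with no overlap, where 6.56% of all tested probes and 22.5% of those with a name did so. Their median difference was -5.40. Protein amnionless (L12_89217) and cubilin (L2_88422) together form the receptor that takes in the complex of intrinsic factor and vitamin B12. Amnionless ranged from -6.03 to -2.37 in AI (median -5.63) and from 5.54 to 6.73 in PI (median 6.18). Cubilin ranged from -7.32 to -5.07 (median -6.75) and from 2.0 to 2.53 (median 2.35), and was well above background on 2 AI arrays. Within each segment the arrays lay close together, save AI replicate 2, which was the highest AI array for both and still far below PI. The differences were -11.25 (SE 0.41) and -8.94 (SE 0.25), with adjusted p = 2.5e-12 and 9.7e-14.

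Gastric intrinsic factor-like (L12_84721), named after the carrier that protects vitamin B12 in the gut, was at 4.68 on AI replicate 2, between -5.73 and -1.72 on the other AI arrays and between 5.66 and 7.44 in PI. It differed by -8.70 (SE 0.97, adjusted p = 2.0e-06), and by -9.64 without AI replicate 2. Transcobalamin-2 (L12_83830), which carries vitamin B12 in blood, differed by -5.40 (SE 0.17) and low-density lipoprotein receptor-related protein 2 (L2_87513), also called megalin, an endocytic receptor that works with cubilin in the kidney, by -4.37 (SE 0.15). Levels were 0.97 to 1.93 in AI against 6.35 to 7.40 in PI for the former and -5.22 to -4.13 against -0.78 to -0.22 for the latter. Disabled homolog 2, the adaptor that links such receptors to clathrin, differed by -2.15 (SE 0.33) and disabled homolog 2-like, well above background on 3 AI arrays, by -3.5 (SE 0.48).

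All 27 listed genes of the lysosome and its proton pump were higher in PI. Of these, 21 did not overlap, where 6.56% of all tested probes and 22.5% of those with a name did so. The list does not hold every lysosomal gene with a name, and those left out, arylsulfatase A among them, are not described here. Most differences were modest, with a median of -1.25. Cathepsin L-like (L2_51754), a protein-cutting enzyme, was not well above background on any AI array and was at least 253-fold higher in PI (adjusted p = 4.9e-13). Lysosomal protective protein (L12_87958), known as cathepsin A, ranged from 2.37 to 3.45 in AI (median 2.95) and from 6.08 to 6.59 in PI (median 6.37). Lysosomal alpha-mannosidase (L12_89880), which trims sugar chains, ranged from 0.64 to 2.45 (median 1.99) and from 4.26 to 5.29 (median 4.57). They differed by -3.37 (SE 0.14, adjusted p = 1.3e-11) and -2.86 (SE 0.23, adjusted p = 4.5e-08). The 11 listed subunits of the proton pump differed by -0.71 to -1.96, the catalytic subunit A by the most. AI replicate 2 did not lie toward PI in this list. Its median member lay -0.198 of the way from the other AI arrays to PI, that is, slightly on the far side of AI.

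Sorting nexins, which steer cargo out of endosomes, were higher in PI in 12 of 14. Sorting nexin-6-like (L12_82553) ranged from -1.38 to 0.34 in AI (median -0.74) and from 4.65 to 5.48 in PI (median 5.20), a difference of -5.75 (SE 0.24, adjusted p = 1.5e-11). Sorting nexin-8 differed by -3.43 (SE 0.14), sorting nexin-2 by -2.71 (SE 0.26), sorting nexin-4 by -1.69 (SE 0.24) and sorting nexin-1 by -1.32 (SE 0.11), each without overlap. Sorting nexin-18 was the exception, 10.8-fold higher in AI (difference 3.43, SE 0.27, adjusted p = 3.3e-08). With normexp background correction 9 were called higher in PI.

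Bile acid genes were higher in PI in all 3 cases, and AI replicate 2 lay at the PI level for the 2 with large differences. Gastrotropin (L2_73008), which binds bile acids inside ileal enterocytes, lay between -5.42 and 4.45 on 7 AI arrays, at 9.56 on AI replicate 2 and between 8.91 and 9.78 in PI. Ileal sodium/bile acid cotransporter (L2_88118), which takes bile acids up from the lumen, lay between -8.91 and -4.55, at 3.23 and between 2.76 and 3.93. They differed by -9.07 (SE 1.55, adjusted p = 0.00016) and -8.69 (SE 1.21, adjusted p = 2.1e-05), or by -10.39 and -9.93 without AI replicate 2. G-protein coupled bile acid receptor 1 differed by -0.62 (SE 0.20, adjusted p = 0.018). Its call ended with normexp (-0.03), with number and slide blocked together (-0.53), without AI replicate 2 and PI replicates 7 and 8 (-0.51) and without PI replicates 3, 7 and 8 (-0.62).

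Hox genes were higher in PI in 16 of 16 cases, with a median of -3.58, and the 3 members of group 13 were among the 6 with the largest differences. Hox-A13a (L2_62478) ranged from -7.74 to -1.27 in AI (median -7.26) and from 0.48 to 1.36 in PI (median 0.71). Hox-C13a (L2_71564) ranged from -8.72 to -6.09 (median -6.38) and from -1.93 to 1.33 (median 0.39). Neither overlapped, and AI replicate 2, at -1.27, stood far above the other AI arrays for Hox-A13a but not for Hox-C13a. They were well above background on 1 and 4 AI arrays and differed by -7.37 (SE 0.71, adjusted p = 3.4e-07), or -8.13 without AI replicate 2, and -6.88 (SE 0.44, adjusted p = 2.6e-09). Hox-A11a (-5.59, SE 0.87), well above background on 1 AI array, and Hox-A9 (-5.05, SE 0.64) differed by -6.54 and -5.71 without AI replicate 2, which lay within or above the PI range for both. Hox-D4b (-5.84, SE 0.42) and Hox-A13b (-4.43, SE 0.41) did not overlap and were well above background on 2 and 3 AI arrays. The smallest differences were those of Hox-A4 (-0.85), Hox-C11a (-0.91) and Hox-A3a (-1.0). With normexp background correction 14 were called and the median was -1.38.

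**Figure D3:**
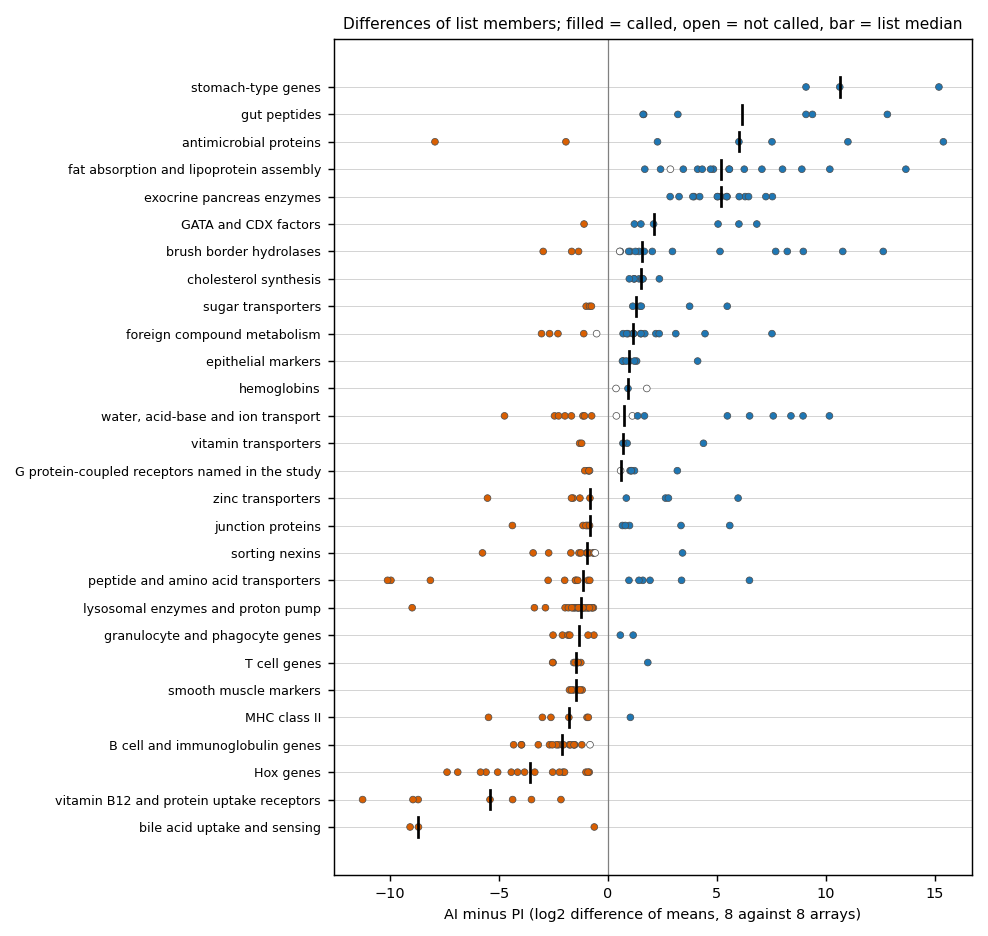
AI minus PI difference (x axis, log2) of every tested member of 28 gene lists (rows), filled where called and open where not, with a bar at the list's median. The lysosomal, vitamin B12 and Hox members all lie on the PI side, the stomach-type, fat absorption and gut peptide members on the AI side, and the transporter lists on both.

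Several other genes were high in PI alone. Transmembrane protein 236 (L2_85695) was not well above background on any AI array and was at least 1569-fold higher in PI (adjusted p = 2.5e-16). The muscle-type protein IGFN1 (L2_75459) was likewise at least 227-fold higher, or at least 362-fold without PI replicate 7 (adjusted p = 7.1e-09). Histidine ammonia-lyase (L2_88047), the first enzyme of histidine breakdown, ranged from -8.78 to -6.25 in AI (median -7.31) and from 0.07 to 2.58 in PI (median 1.86). Unconventional myosin-Vb (L2_89984), a motor of apical recycling endosomes, ranged from -7.82 to -6.13 (median -6.59) and from 0.88 to 1.62 (median 1.32). These 2 genes showed no sign of the AI replicate 2 pattern and were well above background on 1 and 5 AI arrays. They differed by -9.15 (SE 0.38, adjusted p = 1.5e-11) and -7.98 (SE 0.21, adjusted p = 4.3e-14).

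Transmembrane and immunoglobulin domain-containing protein 1 (L2_79144), an adhesion protein of kidney and gut epithelium, was in contrast at 6.98 on AI replicate 2, between -9.26 and -1.56 on the other AI arrays and between 5.96 and 7.42 in PI (difference -11.99, SE 1.77, adjusted p = 3.7e-05). Without AI replicate 2 it differed by -13.74, and it was well above background on 3 AI arrays. Patched domain-containing protein 3 (-8.50, SE 0.98) and the transcription factor forkhead box protein D2 (-7.47, SE 0.71) did not overlap and differed by -9.47 and -8.22 without that array. Alcohol dehydrogenase A (-6.50, SE 0.53), well above background on 4 AI arrays, and the transporter-family protein MFSD4A (L12_88467, -5.99, SE 0.27) also did not overlap.

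By count, most listed genes of immune cells were higher in PI. Of all 3477 named probes tested, 1843 were called higher in PI and 1488 higher in AI. In whole tissue, fewer cells of a type and less RNA per cell cannot be told apart. Of 17 B cell and immunoglobulin genes tested of 18, 16 were higher in PI, none in AI, with a median of -2.10. With normexp 13 were called and the median was -1.31. CD79b (L12_72056), a signalling chain of the B cell receptor, ranged from -4.63 to -2.08 in AI (median -3.37) and from -1.34 to 2.24 in PI (median 0.82). The secreted form of the Ig heavy chain C region (L12_88285) ranged from -3.99 to -0.40 (median -2.49) and from -0.45 to 3.47 (median 1.99). In PI both were lowest on replicate 7 and next lowest on replicate 8. They differed by -3.96 (SE 0.48, adjusted p = 5.5e-06) and -4.32 (SE 0.58, adjusted p = 1.5e-05). The tau-5 heavy chain constant region differed by -2.67 (SE 0.39). Calls for Ig heavy chain V region XIG14 (-1.19) and for an Ig kappa chain V region (L2_62633, -1.71) ended when any 1 of 8 or of 5 arrays was left out, with differences of -1.01 to -1.16 and -1.41 to -1.63. The summed level of the list was 3.94 to 6.98 in AI and 6.07 to 8.76 in PI.

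Of 8 T cell genes, 6 were higher in PI and T-cell receptor beta chain ANA 11 was higher in AI (1.83, SE 0.19). CD4, the co-receptor of helper cells, differed by -2.53 (SE 0.37), the CD28 homolog by -2.51 (SE 0.35), CD3 gamma/delta by -1.37 (SE 0.22) and CD3 epsilon by -1.24 (SE 0.18). T-cell receptor beta chain T17T-22-like (-1.57) missed the threshold (adjusted p = 0.0719). It passed with some alternatives, among them the replicate block (adjusted p = 0.00259) and the slide block (adjusted p = 0.033). This probe was well above background on 4 AI and 7 PI arrays and differed by -0.05 with normexp. With normexp 5 were called higher in PI, and T-cell receptor beta chain T17T-22 (-1.52) lost its call (-0.29). Summed over the T cell list, levels were nearly equal, 1.47 to 2.16 in AI and 1.51 to 2.28 in PI. Of 7 MHC class II chains, which present peptides to helper cells, 6 were higher in PI, with a median of -1.79 over the list. With normexp 4 were, the median was -0.58, and the calls of the HLA DQ beta 1 chain (-3.0 without and -0.19 with it) and of the DLA DR-1 beta chain-like (-1.79 and -0.39) ended. The HLA DQ beta 1 chain was well above background on 1 AI array. The B-L beta chain (L2_52334) differed most, by -5.47 (SE 0.38, adjusted p = 8.5e-09), and was well above background on 4 AI arrays, while Mamu DR alpha chain ran the other way (1.04, SE 0.28). Summed over the MHC class II list, levels were 3.14 to 4.76 in AI and 2.34 to 3.65 in PI, toward AI with overlap. Chains of this family are near copies of one another and their probes may share signal.

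Of 8 genes of granulocytes and phagocytes, 6 were higher in PI. Myeloperoxidase differed by -2.51 (SE 0.51), myeloperoxidase-like by -1.82 (SE 0.36), and the oxidase subunits cytochrome b-245 light chain and neutrophil cytosol factor 1 by -2.08 (SE 0.34) and -1.74 (SE 0.22). Macrophage mannose receptor 1-like (1.16, SE 0.27), well above background on 6 AI and 2 PI arrays, and macrophage colony-stimulating factor 1 receptor 1 (0.57) were higher in AI, and colony-stimulating factor 1 receptor 2 (-0.64) was higher in PI. The call of receptor 1 ended with number and slide blocked together (adjusted p = 0.058) and, like that of receptor 2, without PI replicates 5 and 6 (adjusted p = 0.073 and 0.074). The call of receptor 2 also ended without PI replicate 6 (-0.56). Summed over this list, levels were 1.78 to 2.89 in AI and 3.08 to 5.16 in PI.

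The tissue markers also differed, and their part in the results above was not tested. All 6 smooth muscle markers were higher in PI, by -1.18 (synemin-like) to -1.76 (myosin-11), with summed levels of 3.65 to 5.30 in AI and 5.28 to 6.49 in PI. With normexp 5 were called, without synemin-like (-0.56). All 7 listed epithelial markers were higher in AI, with a median difference of 0.995. Intestinal fatty acid-binding protein differed by 4.12, and the others by 0.67 (cadherin-17) to 1.32 (mucin-13). Summed levels were 8.77 to 9.32 in AI and 5.14 to 7.03 in PI, a gap that rests mostly on intestinal fatty acid-binding protein. That gene and CDX-1 were also described above with other lists. The marker list does not hold all genes of epithelium. Outside it, claudin-3 (0.80) was higher in AI, and claudin-7-B (-0.95) and CHOX-CAD (-1.09) were higher in PI. Keratin, type II cytoskeletal 8 (0.71) lost its call with quantile scaling (0.43, adjusted p = 0.095) and with number and slide blocked together (adjusted p = 0.064). Of 3 hemoglobins, alpha-D was higher in AI (0.93, SE 0.24). Hemoglobin subunit beta-2 (1.79, SE 0.83) missed the threshold (adjusted p = 0.0938) and passed with the replicate block (adjusted p = 0.0404). Its difference was 1.18 without PI replicate 6.

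Junction proteins were divided, 5 of 11 higher in AI and 6 in PI (5 with normexp). Claudin-2 (L12_86083), which forms a pore for sodium and water, ranged from 2.58 to 3.45 in AI (median 2.86) and from -4.51 to -0.44 in PI (median -2.80). Claudin-14 (L2_76063), a sealing claudin, ranged from -6.87 to -3.40 (median -6.05) and from -2.0 to -0.63 (median -1.72). Neither overlapped, and they differed by 5.59 (SE 0.52, adjusted p = 2.4e-07) and -4.38 (SE 0.39, adjusted p = 1.3e-07). Gap junction Cx32.2 protein was 10.3-fold higher in AI (3.36, SE 0.32). Gap junction beta-2 protein (-1.01, adjusted p = 0.038) was well above background on 3 AI and 7 PI arrays. Its call ended when any 1 of 8 arrays was left out, with differences of -0.78 to -1.02, and its direction turned with normexp background correction (0.06).

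Enzymes that handle foreign compounds were mostly higher in AI, 15 of 20 tested against 4 higher in PI, of 24 listed. Cytochrome P450 2D15 (L1_85234), of the oxidising enzymes of phase I, ranged from -1.5 to 3.39 in AI (median 2.91) and from -7.97 to -3.11 in PI (median -5.01). It differed by 7.53 (SE 0.79, adjusted p = 9.0e-07). Cytochrome P450 2D20 differed by 4.46 (SE 0.51) and UDP-glucuronosyltransferase, a conjugating enzyme, by 2.36 (SE 0.31). Cytochrome P450 1A1, the enzyme induced by aryl hydrocarbons, differed by 3.12 (SE 0.63) and was well above background on 3 PI arrays, with AI replicate 3, at -0.34, above all other arrays. Cytochrome P450 2J1 (-3.04, SE 0.63), cytochrome P450 4A12A (-2.67, SE 0.34) and glutathione S-transferase (-2.29, SE 0.29) were higher in PI. UDP-glucuronosyltransferase 1-7 (0.92) lost its call without PI replicate 3 or 6 (0.80 and 0.83), and 1-5 (-1.1) without any 1 of 11 arrays (-0.84 to -1.1) and with normexp (-0.42), which left 3 higher in PI. Glutathione S-transferase omega-1 (-0.51) missed the threshold (adjusted p = 0.130) and passed with the replicate block (adjusted p = 0.00827). It also passed with quantile scaling (adjusted p = 0.047), with number and slide blocked together (adjusted p = 0.032) and without AI replicate 3 (adjusted p = 0.039).

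Digestive enzymes of the exocrine pancreas, which in many teleosts lies as scattered tissue around the gut, were called higher in AI in 15 of 15 cases. Their median difference was 5.20. The groups did not overlap for 2 of them. Of all tested probes 6.16%, and of those with a name 19.9%, did not overlap with AI higher. The arrays of each segment were split for these genes. Chymotrypsin-like elastase family member 2A (L12_72877) ranged from -1.73 to 7.22 in AI (median 4.12) and from -8.35 to 2.99 in PI (median -6.13). AI replicates 1, 2, 4 and 7 lay between 6.70 and 7.22 and AI replicates 3, 5, 6 and 8 between -1.73 and 1.53, while PI replicates 5 and 6, at 2.45 and 2.99, stood above the other PI arrays. Its difference was 7.55 (SE 1.97, adjusted p = 0.0051), and 8.61 without PI replicate 6. It was well above background on 5 PI arrays, and elastase-1 on 2. Elastase-1 (7.25, SE 1.81), bile salt-activated lipase (6.46, SE 1.74), chymotrypsin-C (6.30, SE 1.80) and chymotrypsin A (5.47, SE 1.61) shared the split, and differed by 8.20, 7.26, 7.13 and 6.19 without PI replicate 6.

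By replicate number the AI array was higher for all 15 enzymes in numbers 1, 2, 3, 4, 7 and 8, with median differences of 9.99, 9.11, 3.11, 10.48, 10.47 and 4.66. In number 5 the PI array was higher for 12 of 15 (median -3.21) and in number 6 for 13 of 15 (median -3.39). Within slides 1, 2 and 3 the median differences were 7.45, 3.32 and 5.54, all 15 positive in each, with 1, 1 and 0 called. Without PI replicates 5 and 6 all 15 were called (median 6.48), and without PI replicates 7 and 8 12 were. Without PI replicates 3, 7 and 8 the median was 4.35 and 5 of 15 were called. The summed level of the list was 6.57 to 10.72 on the AI arrays and 1.85 to 5.78 on the PI arrays. In such a sum bright members count most, among them trypsinogen-like protein 3, described below. The list medians on AI replicates 5 and 6, -1.73 and -2.07, lay below the 1.27 and 0.96 on PI replicates 5 and 6. Trypsin-3 (3.27, adjusted p = 0.039) lost its call when any 1 of 10 arrays was left out, with differences of 2.73 to 3.25, and with the replicate block (adjusted p = 0.0632).

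Trypsinogen-like protein 3 (L12_73411) did not share the split. It ranged from 5.98 to 7.62 in AI (median 6.99) and from -4.69 to 3.92 in PI (median 1.04), where replicate 4 was lowest and replicates 5 and 6 were at -0.37 and -0.55. It differed by 6.03 (SE 0.94, adjusted p = 6.3e-05), and by 5.23 without PI replicate 4. High choriolytic enzyme 1 (L12_72344), named after a fish hatching protease and not in the list, had one of the largest SDs in AI and showed the same arrays on top, AI replicate 4 at 3.21 and PI replicate 6 at -1.08. It was well above background on 2 PI arrays and differed by 6.04 (SE 1.75, adjusted p = 0.010), or 6.91 without PI replicate 6. Its call ended without PI replicates 3, 7 and 8 (4.72).

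**Figure D4:**
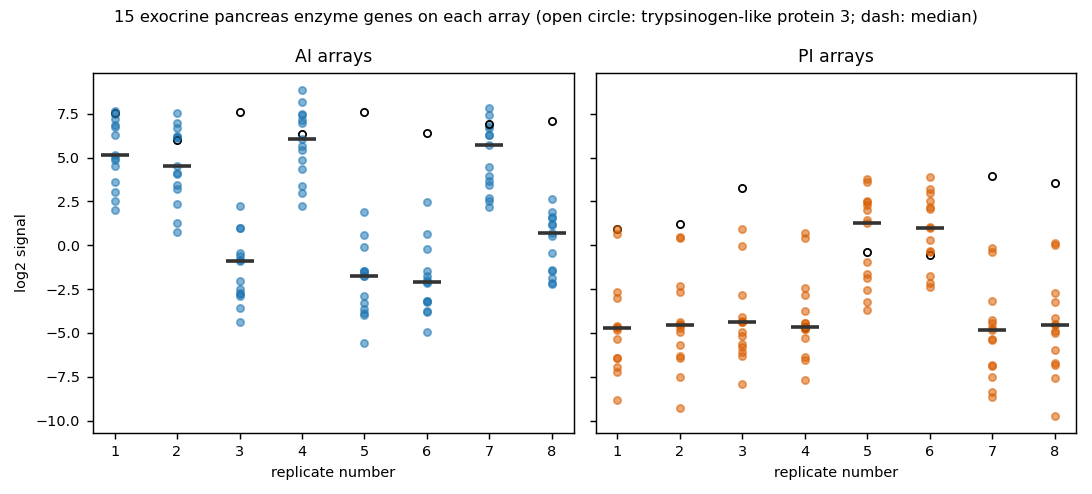
Log2 level (y axis) of 15 pancreatic enzymes on each AI and PI array (x axis, replicate numbers), with a dash at each array's median and an open circle for trypsinogen-like protein 3. Medians are high on AI replicates 1, 2, 4 and 7, and PI replicates 5 and 6 stand above the AI arrays of the same numbers.

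The arrays that lay between the segments were the same for many genes. For 5317 called probes with a value on every array, the AI array nearest to PI was AI replicate 2 for 2037, against 315 to 738 for the other AI arrays. The PI array nearest to AI was replicate 7 for 1237, replicate 3 for 891 and replicate 8 for 884. In 674 probes AI replicate 2 was the sole AI array that overlapped with PI, 363 of them 2-fold or more apart, against 43 to 239 probes (10 to 101) for each of the other 15 arrays. By list, the median member on AI replicate 2 lay 1.01 of the way to PI for bile acid genes and 0.855 for Hox genes. It lay 0.193 of the way for the vitamin B12 and protein uptake genes and 0.0707 for fat absorption. With AI replicate 2 and PI replicates 7 and 8 left out together, 5367 probes were called, 2425 of them 2-fold or more apart.

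**Figure D5:**
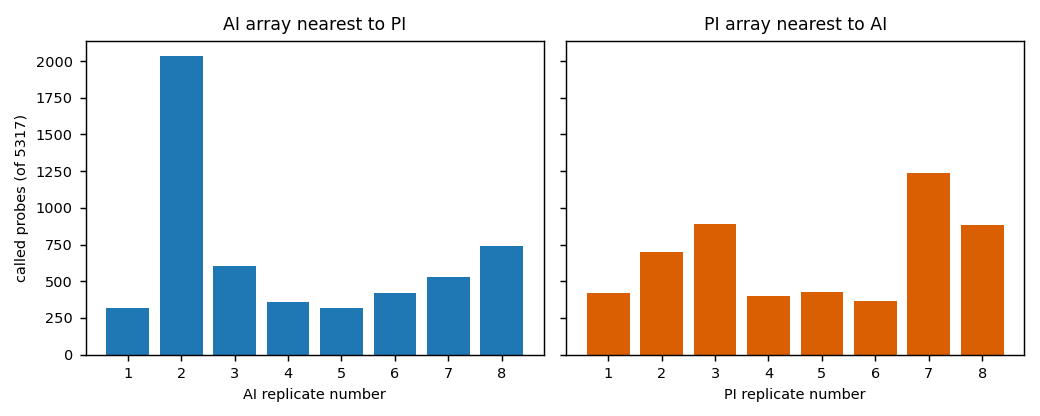
Number of called probes (y axis, of 5317) for which each array (x axis) was the array of its segment nearest to the other segment. AI replicate 2 leads with 2037 and PI replicate 7 with 1237.

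Arrays of AI lay somewhat farther from each other than arrays of PI. The median absolute deviation of an array from the mean of the other 7 of its segment averaged 0.287 ± 0.0493 (SD, n = 8) over the AI arrays and 0.244 ± 0.0364 (SD, n = 8) over those of PI. Values of a segment share arrays and are not independent, and pairing by number was left out. The p-value of the test is therefore approximate. The difference of 0.0431 did not pass the threshold (two-sided exact permutation test, p = 0.0690). It passed without AI replicate 4 (0.0575), 5 (0.0557) or 6 (0.0537) or PI replicate 3 (0.0491), and its sign turned with normexp background correction. For single probes the median SD was 0.381 in AI and 0.313 in PI.

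By replicate number, 845 of the 990 probes called 2-fold or more higher in AI were higher in AI in all 8 numbers, and 973 of the 1113 higher in PI were lower in AI in all 8. Number 2 had the smallest median differences, 1.18 and -1.01.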

How the data were processed

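RNA of single fish was labelled with Cy3 and hybridised to 1-colour Agilent arrays of 15744 spots, 536 of them controls. The authors deposited Agilent Feature Extraction 11.5.1.1 scanner files, whose processed signal is a background-subtracted intensity with no scaling between arrays, and a table of log2 values of the same arrays, used as an alternative. Spots flagged as non-uniform or as outliers were left out, spots of a probe averaged, and log2 signals set relative to each array's 75th percentile (503.8 to 1183). The number of arrays, 8 a group, limits the precision. Probes that were well above background on 8 or more of 16 arrays were tested with limma 3.58.1 (R 4.3.3) on AI and PI arrays alone, with Benjamini-Hochberg adjustment over all 12691 probes. Python 3.11.15, numpy 2.4.6, pandas 2.3.3 and scipy 1.17.1 were used for summaries. Where no array of a group was well above background, "at least" folds compare the brighter group's mean with the lowest signal well above background on each array (4.25 to 8.80 before scaling), or the probe's own signal where higher. On simulated data for AI against PI with 12691 probes, 70% of 100 changes of 1 log2 unit were recovered. For 100 changes of 2 units the share was 96%, and 10 calls were wrong. Far fewer probes were changed there than the 5366 called in the data, and the Benjamini-Hochberg adjustment depends on that number. These figures therefore do not give the recovery or the error rate of the AI and PI test itself.

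The study compared segments with a t-test and no block, so replicate number is not in the design. AI and PI share numbers, and no source used here says that equal numbers are 1 fish. Deviations from the segment means correlated between equal numbers with r of 0.188 to 0.605 (median 0.356). Each AI array correlated best with the PI array of its own number, in 8 of 8 cases. The numbers were therefore taken to pair the arrays in the replicate block. SE and adjusted p values come from the fit without pairing unless a block is named. Unequal numbers had a median r of -0.0474, and with slide removed 4 of 8 pairs were over 0.1. Except for numbers 3 and 6, both arrays of a number were on the same slide, so number and slide are partly confounded. With number and slide blocked together, numbers 3 and 6 serve to fit the slides, and the difference rests on the other numbers. With slide removed r was 0.24, 0.52, 0.34 and 0.24 for numbers 1, 3, 4 and 8. For numbers 2, 5, 6 and 7 it was -0.02 to 0.04. Alternatives were quantile scaling, normexp background correction (offset 50), other filters, a floor, blocks for slide and number, single slides, the methods' t-test, a trended prior, a joint fit with the middle segment and each array left out. Leaving out several arrays together was chosen after seeing the data.

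Genes in the text were taken from the 15 named probes per direction with the largest differences among called probes whose groups did not overlap, up to 6 members per list (all of a list of 8 or fewer), members against their list's direction, 2 unnamed probes per direction and the 6 with the largest SD in each segment. Other list members named were chosen after their values were seen. The members and the 28 lists were chosen with earlier results of these data known. The study's table of called genes served for names alone, and its comparison values were not used. Probe sequences and a genome were not used here.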

Additional observations from a re-analysis of the deposited data

Results flagged for a closer look

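In 62 of 422 groups of 8 arrays, 1 array lay apart from the other 7 by Dixon's gap at the 95% level. The level allows about 1 of 20 groups by chance, but that rate is no benchmark here. Some genes were chosen for large spread or large differences, and all share the same arrays. The 62 belong to 60 genes, and in 49 the array was AI replicate 2, each time on the side toward PI. Values are log2 levels on the array that lay apart, and some of the lowest lie near background.

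AI replicate 2 was above the other AI arrays for Homeobox protein Hox-A9 (1.75), Homeobox protein Hox-A11a (-1.49), Alcohol dehydrogenase A (-3.72), Cytochrome b-245 light chain (0.89), Gastric intrinsic factor-like (4.68), Dipeptidase 1 (7.0), MFSD4A (-0.37), Patched domain-containing protein 3 (2.14) and Protein amnionless (-2.37). It was also above them for Gamma-glutamyltranspeptidase 1 (6.28), Chloride anion exchanger (2.98), Sodium/hydrogen exchanger 7 (-4.11), Homeobox protein Hox-A13a (-1.27), Claudin-14 (-3.40), Transmembrane and immunoglobulin domain-containing protein 1 (6.98), Forkhead box protein D2 (-0.10), Ileal sodium/bile acid cotransporter (3.23) and Cubilin (-5.07). Further genes above them were B(0,+)-type amino acid transporter 1 (3.06), Excitatory amino acid transporter 3 (5.52) and Solute carrier family 15 member 2 (3.22).

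The same array was below the other AI arrays for Zinc transporter ZIP4-like (-2.65), 7-dehydrocholesterol reductase (-2.43), Methylsterol monooxygenase 1 (3.86), Carbonic anhydrase 4 (-3.65), Zinc transporter ZIP8 (-0.12), Sodium-dependent neutral amino acid transporter B(0)AT1 (3.06), Carbonic anhydrase 1 (-0.90) and G-protein coupled receptor 39 (-0.30). Lower values there were also found for Natterin-3-like (2.0), Lactase-phlorizin hydrolase (6.85), Gastrin (-0.31), Apolipoprotein C-I-like (-1.09), Transcription factor GATA-4 (-6.09), Uncharacterized protein LOC100002243 (0.43), Zinc transporter ZIP4 (-3.30) and Neuromedin-B-like (-0.93). Genes below the other arrays included as well Lathosterol oxidase (-1.93), 14 kDa apolipoprotein (2.26), Emopamil-binding protein-like (-2.60), Transcription factor GATA-4-like (-6.29), Alkaline phosphatase, tissue-nonspecific isozyme (-0.89), Ammonium transporter Rh type B (-2.20), Cytochrome P450 2D15 (-1.50) and Acidic mammalian chitinase (1.70). The list of lower values ends with Solute carrier family 26 member 6 (0.31), Apolipoprotein Eb (-4.96), Peptide Y (-0.66) and Pro-neuropeptide Y (-7.64).

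PI replicate 7 lay apart for Zinc transporter 8 (1.19, below the others) and Natterin-3-like (-4.42, above the others). PI replicate 8 lay apart for Pepsin A (-1.16, above the others). AI replicate 7 lay apart for Disabled homolog 2 (-1.05, below the others), Gap junction beta-2 protein (-7.83, below the others) and Homeobox protein Hox-C13a (-8.72, below the others). The last 2 were well above background on 3 and 4 AI arrays. PI replicate 2 lay apart for Intelectin-2 (-7.61, above the others), which was not well above background on any PI array. AI replicate 3 lay apart for Probable G-protein coupled receptor 63 (-6.42, below the others), Cytochrome P450 2J1 (-8.60, below the others) and Cytochrome P450 1A1 (-0.34, above the others). Receptor 63 and cytochrome P450 2J1 were each well above background on 7 AI arrays. PI replicate 3 lay apart for Cytochrome P450 2J1 (-4.14, below the others). PI replicate 4 lay apart for Hemoglobin subunit alpha-D (-1.57, above the others). PI replicate 6 lay apart for G-protein coupled receptor 84 (-4.09, above the others).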

How the results depend on the processing

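The count of called probes, 5366, was 4972 to 5617 with 1 array left out (2-fold or more, 2018 to 2270), 5521 with quantile scaling, 4795 with normexp background correction, 5304 with the methods' t-test, 5360 from the authors' table and 5604 with slide as a block. With the replicate block, on the pairing of equal numbers, it was 6671, of which 2155 were 2-fold or more: 40 calls were lost and 1345 gained, among list members 1 and 10. With number and slide blocked together it was 5272 (2-fold or more, 1983), with 687 calls lost and 593 gained, among list members 11 and 8. That fit rests on the numbers other than 3 and 6. Besides those given beside their results, sorting nexin-30 (adjusted p = 0.0849 without and 0.00586 with the block) and immunoglobulin lambda-like polypeptide 1-like (0.0690 and 0.00215) passed with the block on number alone, and no other list member changed its call with it. Slides alone gave 507, 2992 and 1512 calls (2-fold or more, 507, 2074 and 1343), from fewer arrays. With normexp 57.2% of calls were higher in AI, against 48.9%, 1262 were 2-fold or more apart, and the median of all probes moved from 0.0160 to 0.113; the cause was not tested. No call turned direction and stayed called in any alternative.

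The spread between arrays (0.0431) was 0.0490 with quantile scaling (exact permutation p = 0.0412), -0.0233 with normexp and 0.0329 to 0.0575 with 1 array left out. Single values that turned were hemoglobin subunit beta-2 (-0.28, slide 1 alone), gap junction beta-2 protein (0.0615 with normexp, 0.16 on slide 1 alone) and facilitated glucose transporter member 1 (0.0205 with normexp). Without PI replicates 5 and 6, 4573 probes were called, without PI replicates 7 and 8, 5091, and without PI replicates 3, 7 and 8, 4784. Signal over background limits 24 called probes to a bound, 14 of them dim in PI and 10 in AI.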
